A study of Mus musculus with 2 samples.

Results

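The 9 genes described here encode the somatostatin receptors (Sstr1, Sstr2, Sstr3, Sstr4 and Sstr5) and the opioid receptors (Oprm1, Oprk1, Oprd1 and the nociceptin receptor gene Oprl1), and their values are the positions of EGR1 binding in mouse frontal cortex. Chromatin bound by EGR1 was isolated by ChIP-seq, in which an antibody pulls down the DNA that a transcription factor occupies, from frontal cortices of 129SvEv/C57BL/6N F1 hybrid male mice at 6 weeks. Each of the 2 ChIP experiments used tissue pooled from 4 to 5 mice, and the labels name no treated or mutant group. The authors kept the peaks that were alike in both replicates at an irreproducible discovery rate (IDR) of 2% or less, a value that is read like a q-value and is low when a peak ranks high in both. A peak was assigned to a gene when its centre lay in the gene body or within 10 kb of a transcription start site (TSS) of the gene in GENCODE M21. By this rule 5 of the 12014 peaks fell at 4 of the 9 receptor genes. The list gives 1 IDR per peak over the merged replicates and no read counts. Thus the depth per peak is unknown, no spread between replicates could be computed, and all comparisons below are counts and values without a test. The input DNA had no processed file here, and because peak positions do not measure expression, the tissue could not be checked against marker genes.

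Somatostatin and opioid receptors are G protein-coupled receptors for neuropeptides that act through inhibitory G proteins. They lower cAMP, open GIRK potassium channels and close calcium channels, and so quiet the neurons that carry them. Somatostatin is released in the cortex by a class of GABAergic interneurons, whereas enkephalins, dynorphins, endorphin and nociceptin are cut from separate precursors and act on the opioid receptors. EGR1 is a zinc-finger transcription factor that neuronal activity induces rapidly, and it binds GC-rich 9-base sites written here as GCGTGGGCG or GCGGGGGCG, on either strand.

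EGR1 peaks were found at the promoters of 3 somatostatin receptor genes and at no opioid receptor promoter. Sstr1, Sstr2 and Sstr3 each had a peak centre within 2 kb of a TSS, and Sstr2 had a pair of them. Oprm1 had 1 peak deep in the gene, at a TSS of a neighbouring gene. Sstr4, Sstr5, Oprk1, Oprd1 and Oprl1 had none. Of all 21938 protein-coding genes, 39.6% had a peak by the same rule, beside 4 of the 9 receptor genes, and 29.6% had one within 2 kb of a TSS, beside 3 of the 9. The receptor genes as a whole thus lay near the background. Divided by family, the count was 3 of 5 for the somatostatin receptors and 1 of 4 for the opioid receptors. Per length of sequence searched, the somatostatin receptor genes held 37.5 peaks per Mb, the opioid receptor genes 2.62 and all protein-coding genes 8.27. The stretches searched were not alike, so these densities also reflect gene length. Each somatostatin receptor gene had 20.0 to 24.9 kb, all of it within 10 kb of a TSS. Of the 0.38 Mb at the opioid receptor genes, 289.7 kb belonged to Oprm1, and most of that was gene body. With 5 and 4 genes these values describe the genes and carry no test of a difference between the families.

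**Figure D1:**
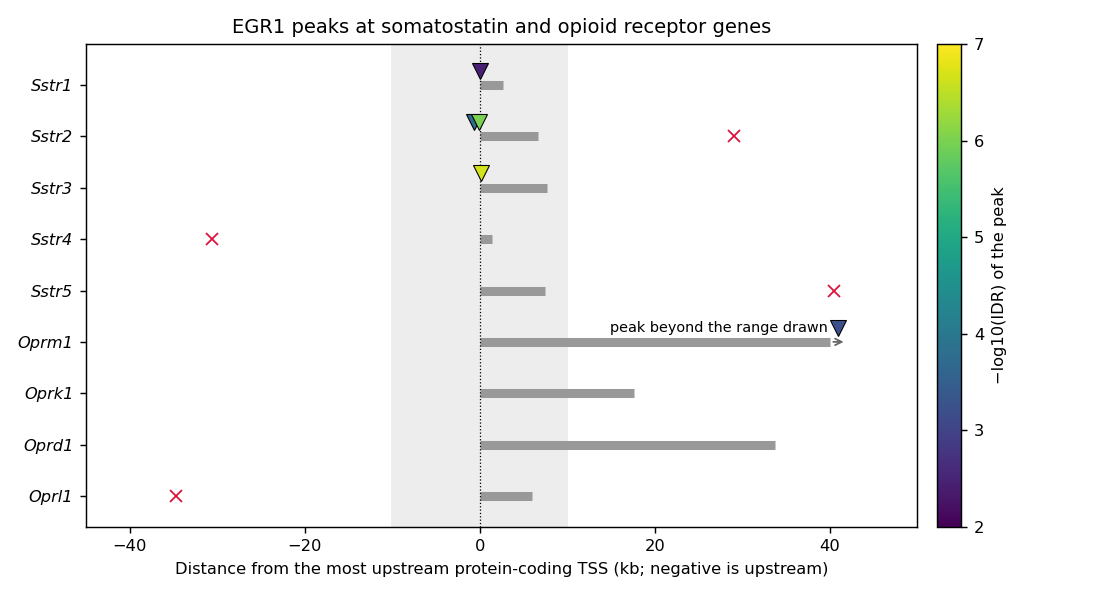
Position of EGR1 peaks (triangles, coloured by −log10 of the IDR) along the 9 receptor genes, in kb from the most upstream protein-coding TSS, with gene bodies as grey bars, the 10 kb on each side of that TSS shaded and the nearest unassigned peak as a red cross where it falls in the range drawn. Peaks of Sstr1, Sstr2 and Sstr3 sit at the TSS, the Oprm1 triangle stands at an arrow because that peak lies farther downstream than drawn, and the other 5 genes have no triangle.

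Sstr2, the receptor that the synthetic somatostatin analogue octreotide chiefly engages, was the receptor gene with 2 peaks. The peak at its TSS ran over chr11:113619149-113619398 on mm10 and had an IDR of 9.96e-07, and 21.5% of the peaks on the list had an IDR as low or lower. Its centre lay 68 bp upstream of the GENCODE TSS at 113619342, and 57 of its 250 bases were in the 5′UTR. The other peak, chr11:113618561-113618822, lay 326 bp further upstream, outside the gene body, with its centre 650 bp before the TSS. It had an IDR of 0.000181, a value that 45.8% of peaks matched or fell below. Such pairs were not rare. At least 2 peaks within 2 kb of a TSS were present at 1283 genes, or 5.85% of protein-coding genes and 19.8% of those with any promoter peak.

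The sequences of both peaks are printed because the TSS peak holds the single exact EGR1 motif found in the 5 receptor gene peaks. Capitals mark the site closest to either 9-base form, and both sequences read 5′ to 3′ on the plus strand, which is the gene strand. The second is the part of the TSS peak before the RefSeq exon, chr11:113619149-113619326, or 178 of its 250 bases.
Sstr2 upstream peak: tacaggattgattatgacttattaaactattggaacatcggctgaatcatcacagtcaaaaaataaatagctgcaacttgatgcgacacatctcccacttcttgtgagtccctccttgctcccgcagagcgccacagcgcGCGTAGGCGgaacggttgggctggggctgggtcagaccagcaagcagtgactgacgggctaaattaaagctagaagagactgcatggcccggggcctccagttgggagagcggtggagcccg
Sstr2 TSS peak: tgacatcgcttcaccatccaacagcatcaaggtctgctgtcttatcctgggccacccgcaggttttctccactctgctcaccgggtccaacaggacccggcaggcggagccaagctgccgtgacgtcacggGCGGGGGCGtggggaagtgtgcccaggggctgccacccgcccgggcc

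GCGGGGGCG in the Sstr2 TSS peak occupied chr11:113619280-113619288, 10 bp from the centre of the peak and 58 bp upstream of the TSS. Just before it stands TGACGTCA, the palindromic cAMP response element that CREB proteins bind. This motif was searched for after the sequence had been seen. TGACGTCA occurred in 1.3% of all peaks and in 3.34% of the promoters of all protein-coding genes (500 bp to each side of the TSS), and 31 peaks, or 0.26%, held it together with an exact EGR1 motif. The same peak also held GGGCGG, the GC box of the SP factors, at 2 places, of which 1 overlaps the EGR1 motif. GGGCGG was common, being present in 55.8% of peaks and 60.8% of promoters. The upstream peak had no exact motif, but GCGTAGGCG, with 1 base different, lay 14 bp from its centre. The 2 peaks differed in base composition. GC content was 70.4% at the TSS and 53.4% upstream, with 24 and 13 CpGs. The CpG ratio, which is the CpG count divided by that predicted from the C and G content, was 0.78 at the TSS and 0.70 upstream. Flanking windows as wide as the peak, placed 5 kb away on both sides, had mean ratios of 0.38 and 0.15, respectively.

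Sstr3 encodes the somatostatin receptor best known from the primary cilia of neurons, and its peak had the lowest IDR of the 5, at 2.22e-07, which 11.8% of the peaks on the list matched or fell below. The peak covered chr15:78544468-78544617. At 150 bp it was narrow, since 6.1% of peaks were as narrow or narrower. In GENCODE its centre was 142 bp downstream of the TSS at 78544685 and all 150 bases belonged to a UTR exon, whereas the nearest RefSeq TSS, at 78544345, puts the centre 198 bp upstream. Which TSS the cortex uses was not measured here.

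The sequence under the Sstr3 peak was unlike that of the other receptor gene peaks in its CpG content. It held 1 CpG, with a CpG ratio of 0.17 beside 0.44 in its flanks, and was the 1 receptor gene peak of 5 with a ratio below its flanks. Of all peaks, 85.4% had a ratio above theirs. On the gene strand 84.0% of its bases were pyrimidines, and counting this peak 5 peaks of the list were as one-sided on either strand. No site within 1 base of the EGR1 motif was found in it. In the tenth of the list that its IDR belongs to, from 1.65e-07 to 5.8e-07, such a site was present in 83.3% of peaks. The closest matches had 2 bases different, and the one nearest to the centre, 18 bp away, is shown with its surroundings on the plus strand, in capitals, to compare with the Sstr2 motif.
Sstr3 closest site: aggagacagtGTGTGGGTGgaaaggcaga
A site with 1 base different, GCGTGGGTG, did occur outside the peak, 253 bp upstream of the GENCODE TSS. Sstr3 is also a gene for which the study designed a ChIP-qPCR amplicon. Its primers had 1 match, chr15:78544743-78544844, and the 102-bp amplicon lies upstream of the gene with 125 bp between it and the peak. No peak of the list overlapped the amplicon itself, but by the paper's methods the chromatin was sheared to fragments longer than that gap. The paper reports EGR1 enrichment by ChIP-qPCR at the peak loci it tested, but its text does not name Sstr3 among them. It also ran ChIP-qPCR for TET1 and H3K27ac, and which of these the Sstr3 amplicon served was not established here. No qPCR values were used.

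Sstr1, the third somatostatin receptor gene with a peak, had the least reproducible of the 5. Its IDR was 0.00357, and 73.9% of the peaks on the list had an IDR as low or lower. The peak covered chr12:58211628-58211891, contained the GENCODE TSS at 58211772 and was centred 12 bp upstream of it. From the nearest RefSeq TSS, at 58211804, the centre was 44 bp away. No other gene had a TSS near, the closest being that of Clec14a at 57530 bp from the centre. GC content was 53.0%, with 8 CpGs and a CpG ratio of 0.43 beside 0.27 in the flanks. The peak held no exact motif. Its closest site had 1 base different and lay 65 bp upstream of the TSS and 52 bp from the peak centre. It is printed on the gene strand with the site in capitals.
Sstr1 closest site: cttagtgtttGCGTGGGCActtgtgcagc

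**Figure D2:**
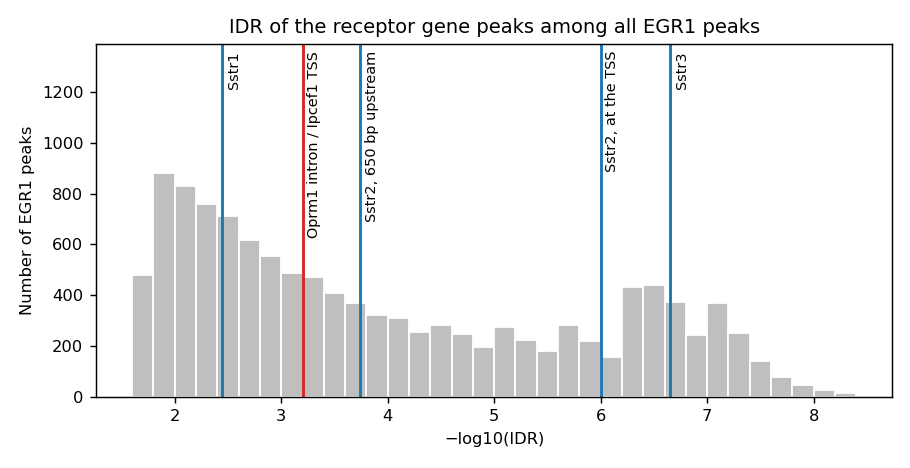
Number of EGR1 peaks (grey bars) by −log10 of the IDR, with a blue line for each somatostatin receptor gene peak and a red line for the Oprm1 peak. The Sstr3 and Sstr2 TSS peaks, at 2.22e-07 and 9.96e-07, stand at the right, and the Sstr1 peak, at 0.00357, stands near the left end.

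Oprm1 encodes the mu opioid receptor, the target of morphine and of endogenous enkephalins and endorphin. Its body spans 279.7 kb in GENCODE, and its 1 peak, chr10:6980261-6980510, had an IDR of 0.000624, which 55.4% of peaks matched or fell below. The centre was in an intron of Oprm1, 191286 bp from the nearest TSS of that gene. Ipcef1, which encodes a protein that interacts with cytohesin exchange factors and runs on the opposite strand through this region, has a TSS at 6980376, 10 bp from the centre. The peak therefore counts for Oprm1 by the rule but is a promoter peak of Ipcef1 by position. Over the whole list, another gene had the nearer TSS in 4923 of 13587 pairs of a gene and an assigned peak, or 36.2%. The peak was poor in GC, at 45.2%, a value that 6.4% of peaks matched or fell below, and had 4 CpGs and a CpG ratio of 0.36 beside 0.26 in the flanks. Neither an exact motif nor a site within 1 base was present. GCGGGGTGG, with 2 bases different, lay at the very centre and is shown in capitals on the plus strand of Oprm1.
Oprm1 closest site: gtgtttatgaGCGGGGTGGattctaaaaa

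The other 5 receptor genes had no peak, and for each of them the nearest lay well beyond 10 kb. Sstr4, whose product is known in the brain from cortex and hippocampus, had its nearest peak 30606 bp upstream, with an IDR of 0.000912, and no other gene had a TSS closer to that peak. Sstr5, a receptor prominent in pituitary and pancreatic islets, had its nearest peak 40470 bp downstream. That peak had an IDR of 1.15e-07 and lay 2130 bp from a TSS of Tekt4. For Oprk1, the kappa receptor of the dynorphins, the nearest peak was 290631 bp upstream, with an IDR of 0.0138. For Oprd1, the delta receptor of the enkephalins, it was 64758 bp downstream, with an IDR of 0.000191, and 4408 bp from Epb41. For Oprl1 it was 34744 bp upstream, with an IDR of 2.06e-07, and 38 bp from a TSS of Tcea2. No peak lay near the 10 kb limit on either side. The closest peak to any of the 9 genes that was not assigned was 24160 bp from an Sstr2 TSS, with an IDR of 0.00016 and 752 bp from Cog1. The farthest of the promoter peaks was the Sstr2 upstream peak, at 650 bp.

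By the CpG ratio at the most upstream protein-coding TSS, receptor genes without a promoter peak included both the highest and the lowest value of the 9. The promoter CpG ratio, taken from 500 bp upstream to 500 bp downstream of the most upstream protein-coding TSS, had a median of 0.56 over all protein-coding genes. Among the genes with a promoter peak it was 0.39 for Sstr1, 0.67 for Sstr2 and 0.41 for Sstr3. Among those without, the ratio reached 0.85 for Oprd1 and 0.82 for Sstr4, was 0.46 for Sstr5 and 0.28 for Oprk1, and fell to 0.17 for Oprl1 and 0.10 for Oprm1. Oprm1 has 9 TSSs in GENCODE, and 0.10 belongs to the most upstream one. In the 250 bases before its RefSeq TSSs the ratio was 0.00 at the most upstream and 0.29 and 0.28 farther downstream. For Oprl1 such values were 0.24, 0.06 and 0.13, so the order of these genes depends on the TSS taken. The median was 0.41 over the 3 genes with a promoter peak and 0.37 over the 6 without, and the values overlapped. All protein-coding genes were then ranked by this ratio and divided into 5 groups of equal size. A promoter peak was present at 3.7% of the genes in the lowest group, 11.4% and 32.9% in the next, then 48.1%, and 51.9% in the highest. Sstr4 and Oprd1 belonged to the highest group and had no peak. Sstr1, in the group with 11.4%, had one. Oprl1 and, by its most upstream TSS, Oprm1 belonged to the lowest.

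**Figure D3:**
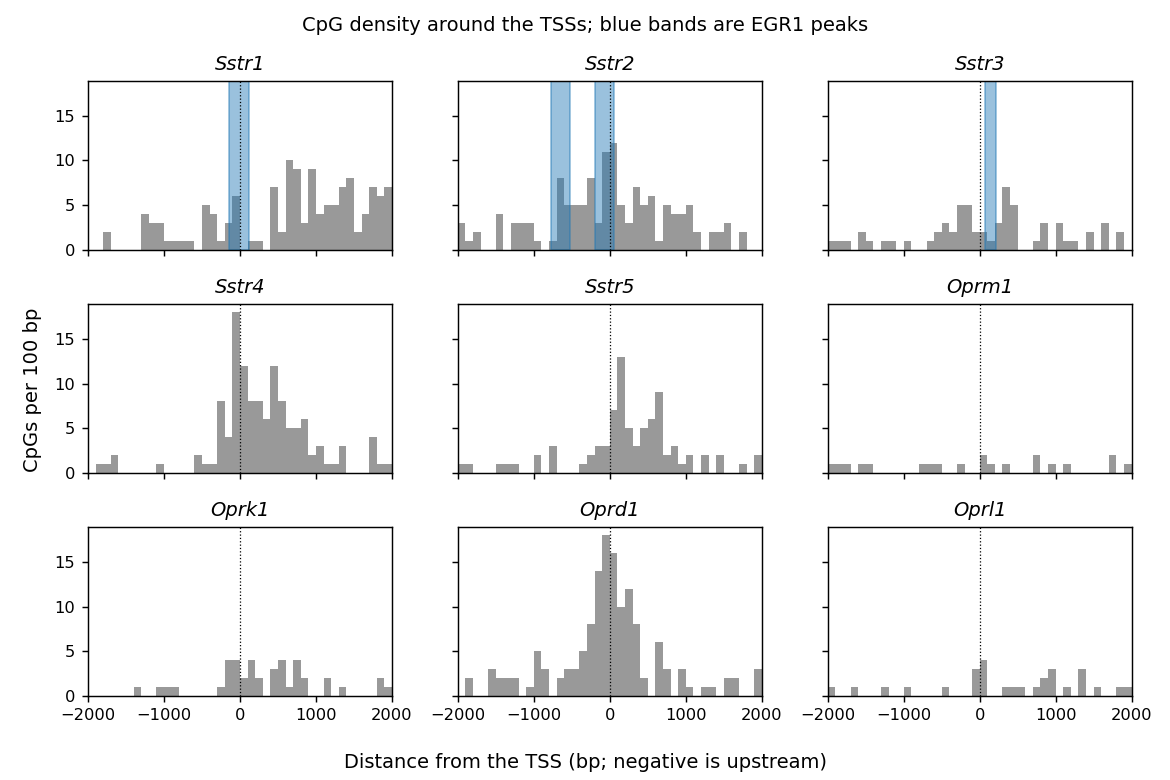
CpGs per 100 bp within 2 kb of the most upstream protein-coding TSS of the 9 genes (grey bars, negative distances upstream), with EGR1 peaks as blue bands. Sstr4 and Oprd1 have the densest CpG clusters and no band, while the Sstr3 band falls in a dip between CpG-bearing bins.

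**Figure D4:**
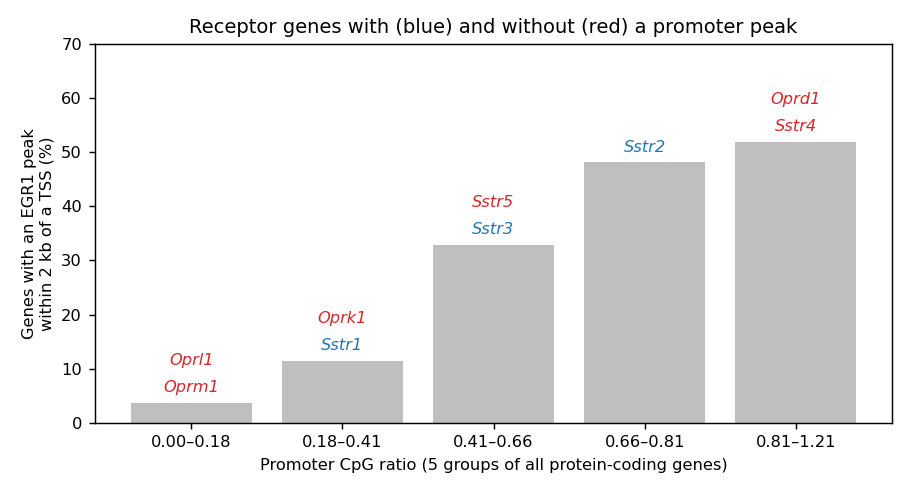
Share of protein-coding genes with an EGR1 peak within 2 kb of a TSS, in percent, for 5 groups of equal size ranked by promoter CpG ratio, with the receptor genes of each group written above its bar in blue (promoter peak) or red (none). The bars climb from 3.7% to 51.9%, and the highest group holds Sstr4 and Oprd1, both without a peak.

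The promoter sequences of Oprd1 and Oprl1, both without a peak, are printed as a CpG-rich and a CpG-poor case among the opioid receptor genes. Oprd1 had the highest promoter CpG ratio of these genes. Oprl1 did not have the lowest by that window, since its 0.17 was above the 0.10 at the most upstream TSS of Oprm1. RefSeq promoters (GRCm38.p6, the assembly that mm10 names) were given for 6 of the 9 genes, with entries for Sstr1, Sstr5 and Oprk1 missing. Each sequence is the 250 bases before a RefSeq TSS, read on the gene strand, with capitals for sites within 1 base of the EGR1 motif on either strand. Oprd1 is at chr4:132144487-132144736 on the minus strand and Oprl1 at chr2:181714766-181715015 on the plus strand.
Oprd1 promoter: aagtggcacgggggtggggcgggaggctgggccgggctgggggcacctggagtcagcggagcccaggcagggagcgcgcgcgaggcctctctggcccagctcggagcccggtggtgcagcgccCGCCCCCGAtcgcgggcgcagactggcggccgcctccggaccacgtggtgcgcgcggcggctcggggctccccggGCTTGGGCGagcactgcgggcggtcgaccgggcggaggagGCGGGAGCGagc
Oprl1 promoter: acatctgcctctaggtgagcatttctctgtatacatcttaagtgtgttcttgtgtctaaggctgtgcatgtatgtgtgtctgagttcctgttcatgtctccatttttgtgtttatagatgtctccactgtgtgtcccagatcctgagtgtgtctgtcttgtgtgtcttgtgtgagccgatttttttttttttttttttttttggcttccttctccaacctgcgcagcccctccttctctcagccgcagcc

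Sites within 1 base of the motif did not separate the promoters with a peak from those without. The Oprd1 stretch had 34 CpGs, a GC content of 80.0% and 3 such sites, and the Oprl1 stretch had 3 CpGs, a GC content of 44.4% and none. In the full promoter windows, 500 bp to each side of the TSS, Oprd1 had 4 sites within 1 base, Sstr4 and Sstr5 had 3 each, and Sstr1, Sstr3 and Oprk1 had 2 each. Sstr2 had 1 site, the exact motif, and Oprm1 and Oprl1 had none. Sstr2 was the 1 gene of 9 with an exact motif in this window. Of all such windows 9.36% held an exact motif, with 2.03% for GCGTGGGCG and 7.64% for GCGGGGGCG.

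Over the 5 receptor gene peaks, 1 held an exact motif, or 20%, beside 16.6% of all peaks, or 1987 of those on assembled chromosomes. A site with at most 1 base different was present in 3 of 5, beside 69.8% of all peaks. The median CpG ratio of the 5 was 0.43, with 0.27 in the flanks, and that of all peaks was 0.60, with 0.19 in the flanks. When the 50% of peaks that had the highest IDR were left out, the medians were 0.70 for the 3 receptor gene peaks and 0.71 for all. Median GC content was 53.4% for the 5 and 60.4% for all peaks. The median IDR was 0.000181 for the 5 and 0.000321 for the list. A motif match describes the letters of the window and does not show that EGR1 was bound at that base.

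Peaks were listed at 1 of 6 ligand precursor genes, 2 of 3 processing enzyme genes and 0 of 2 degrading enzyme genes, beside 39.6% of all protein-coding genes. Of the 6 precursor genes, Pomc, which gives endorphin, was the 1 with a peak, 5108 bp from its TSS and with an IDR of 0.018, close to the 2% limit. The somatostatin gene Sst, its relative Cort, the enkephalin and dynorphin precursor genes Penk and Pdyn, and the nociceptin precursor gene Pnoc had none. Among the processing enzymes, the prohormone convertase gene Pcsk2 had a promoter peak with an IDR of 0.00245 and Cpe, which trims the cut peptides, had 2 peaks with a lowest IDR of 0.000195, while Pcsk1 had none. The neuropeptide-degrading enzymes Mme and Anpep had no peak.

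Most of the listed genes that act downstream of the receptors had a peak. Of the 5 inhibitory G protein alpha subunits 4 had one, all within 2 kb of a TSS. The lowest IDR was 4.02e-07 at Gnao1, the main alpha subunit of neurons, followed by 7.4e-06 at Gnai2, 0.00423 at Gnai1 and 0.00507 at Gnai3, and Gnaz had no peak. Of the 4 GIRK channel genes 3 had a peak. Kcnj6 had 5 of them, none within 2 kb of a TSS, with a lowest IDR of 6.02e-05, Kcnj5 had 1 with an IDR of 0.000555, Kcnj9 had 1 with an IDR of 0.000906, and Kcnj3 had none. Receptor kinases and arrestins, which switch off and internalize active receptors, had a peak at 5 of 6 genes. At 3 of the 6 a peak lay within 2 kb of a TSS, and Grk2 had none there. Among them Grk6 had an IDR of 1.35e-07, Arrb2 2.05e-07, Grk2 5.75e-07 and Arrb1 3.2e-06, and Grk5 had no peak. Of the 6 RGS genes, whose proteins speed the turning off of G proteins, 4 had a peak. Rgs19 had an IDR of 2.06e-07, Rgs14 2.62e-07, Rgs20 7.92e-06 and Rgs17 0.02, the last at the 2% limit, and Rgs4 and Rgs9 had none. Of the 6 RGS genes, 2 had a peak within 2 kb of a TSS, namely Rgs17 and Rgs20. The Rgs19 peak, 9228 bp from its TSS, is the one at Tcea2 that was also nearest to Oprl1. With the ligand precursor, processing and degrading genes counted in, 19 of 32 ligand and signalling genes had a peak, and 13 had one within 2 kb of a TSS, beside 39.6% and 29.6% of protein-coding genes. These shares were not matched for promoter CpG ratio. Of all protein-coding genes, 51.9% in the highest group by that ratio and 3.7% in the lowest had a peak within 2 kb of a TSS.

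**Figure D5:**
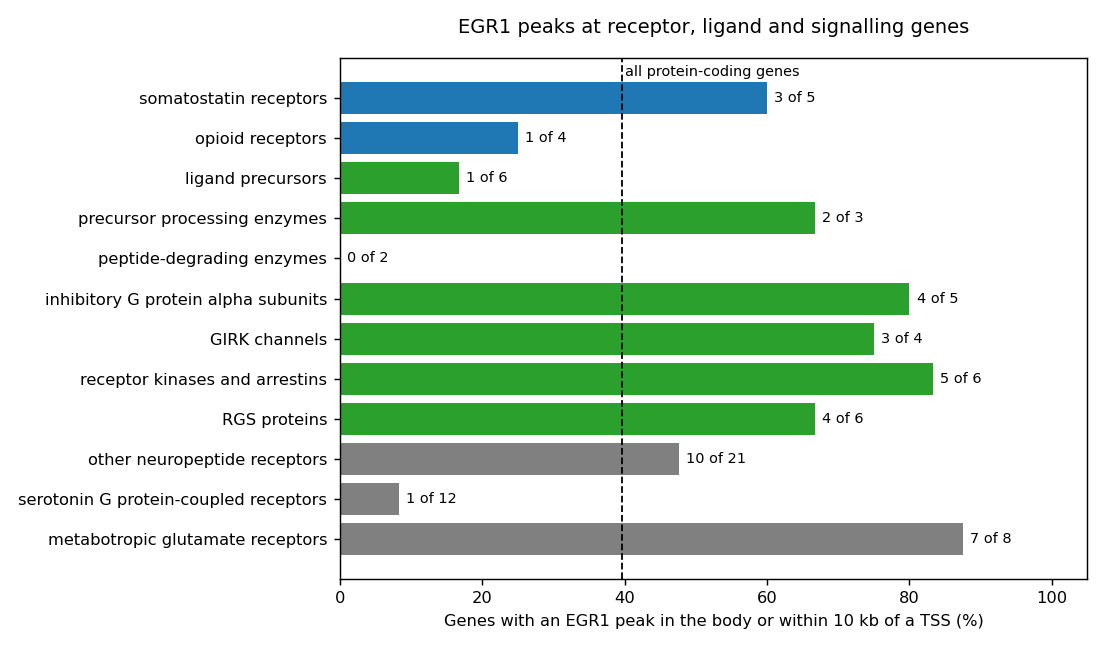
Share of genes with an EGR1 peak in the body or within 10 kb of a TSS, in percent, for the somatostatin and opioid receptors (blue), ligand and signalling genes (green) and other receptor groups (grey), with counts beside the bars and a dashed line at 39.6% for all protein-coding genes. Somatostatin receptors (3 of 5) lie right of the line, and opioid receptors (1 of 4), ligand precursors (1 of 6) and serotonin receptors (1 of 12) lie left of it.

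Among other receptor groups the counts ranged from 1 of 12 to 7 of 8. Of 21 receptors for other neuropeptides 10 had a peak and 8 had one within 2 kb of a TSS. Npy1r and Npy5r were both counted through 1 shared peak, 50 bp from a TSS of Npy1r and 9244 bp from one of Npy5r. The lowest IDRs were 4.97e-08 at Crhr1, the main brain receptor of corticotropin-releasing hormone, 2.49e-07 at Vipr1 (vasoactive intestinal peptide), 2.99e-07 at Mchr1 (melanin-concentrating hormone) and 9.99e-07 at Cckbr (cholecystokinin). That Crhr1 peak lay 25302 bp from the nearest TSS of the gene, which also had 3 peaks within 2 kb of a TSS. The Cckbr value was close to the 9.96e-07 of the Sstr2 TSS peak. Of the 12 G protein-coupled serotonin receptors, Htr4 alone had a peak, with an IDR of 0.000294. Metabotropic glutamate receptors had a peak at 7 of 8 genes, and 5 of the 8 had one within 2 kb of a TSS. Their searched sequence was long, at 3.18 Mb, and held 3.14 peaks per Mb beside 8.27 for all protein-coding genes. The IDRs of 6.61e-08 at Grm4, 2.28e-07 at Grm7 and 2.54e-07 at Grm3 were of the order of that at Sstr3. Together 18 of these 41 receptor genes had a peak, or 43.9%, and 34.1% had one within 2 kb of a TSS. Among all protein-coding genes these shares were 39.6% and 29.6%.

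Gene length bears on such counts, because a longer body can hold more peaks. Among 5 groups of equal size ranked by gene length, 24.7% of the shortest genes and 57.6% of the longest had a peak by the rule. Sstr1 and Sstr4 were in the shortest group, Sstr2, Sstr3, Sstr5 and Oprl1 in the next, where 32.4% of genes had a peak, Oprk1 and Oprd1 in the middle ones, and Oprm1 in the longest. Since the peaks of Sstr1, Sstr2 and Sstr3 lay within 2 kb of a TSS, they did not depend on the length of the body.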

How the data were processed

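EGR1 ChIP-seq was performed by the authors on mouse frontal cortex. Per their methods, reads were trimmed, mapped to mm10 with Bowtie, and peaks were called per replicate with SPP and merged at an IDR of 2% or less. The submitters' processing notes also list Bowtie2 2.2.9 and bedtools 2.26.0. The deposited values are peak positions and the IDR of each peak, read like a q-value or p-value corrected over peaks. How positions are counted is not stated, and they were read as BED positions and printed counted from 1. Peaks on scaffolds (76) were left out of all values taken from sequence, which left 11938. The shares of peaks by IDR and by width, and the median IDR of the list, rest on all 12014 peaks.

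Peak centres were compared with GENCODE M21 and the GRCm38.p6 sequence, with Python 3.11.15, numpy 2.4.6, pandas 2.3.3 and matplotlib 3.10.9. The scripts were tested on simulated data. All 9 receptor genes are named. From each other list, at most 4 genes with the lowest IDR are given with values, together with genes whose TSS is nearest to a receptor gene peak. The Cog1, Tekt4, Epb41, Tcea2, Clec14a, Npy1r, Npy5r and Crhr1 distances were added after their values were seen. The genes and lists were chosen with earlier results of these data known. The rule also names the genes without a peak, which was done for the ligand and signalling lists. Among the other receptor groups these are given as counts, and for the metabotropic glutamate receptors 3 genes are given with values and the others are not reported here by name.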

Additional observations from a re-analysis of the deposited data

How the results depend on the processing

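Of 68 alternatives to the distances, TSS sets, IDR limits, motifs and windows, 58 left a value within its tolerance and 10 moved it beyond. With gene bodies alone, receptor genes with a peak fell from 4 to 2 and their peaks from 5 to 2 (23.9% of all protein-coding genes had a peak), ligand and signalling genes from 19 to 11, and other receptors from 18 to 9. The Sstr1 and Sstr2 peaks, centred upstream of the TSS, were then left out, and for the other genes the cause was not tested. With the 50% of peaks that had the lowest IDR, the receptor genes numbered 2 (Sstr2 and Sstr3, beside 25.8% of all genes) with 3 peaks, ligand and signalling genes numbered 11, and the median CpG ratio was 0.70 for receptor gene peaks and 0.71 for all peaks, in place of 0.43 and 0.60, so that the difference between them was no longer seen. The cause was not tested. GCGTGGGCG alone was in 0 of the 5 peaks (4.41% of all peaks), and a site with at most 1 different base was in 3. No paired analysis was possible because the replicates were merged in 1 list, and for the same reason no replicate could be left out. Depth per peak is unknown, so a gene without a listed peak may hold binding that did not pass the authors' threshold.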
